A study of Mus musculus with 12 samples.

Results

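The Id proteins and the E proteins are helix-loop-helix factors that act as a pair of opposing families, and 6 of their genes were followed here: the inhibitors Id1, Id2 and Id3 and the E protein genes Tcf3 (which encodes E2A), Tcf4 (E2-2) and Tcf12 (HEB). They were taken by name, by a rule that used no expression value, and all 6 were among the 17523 genes of the table, which names genes by Entrez identifiers. RNA sequencing had been run on splenic CD4+ T cells of GM-CSF reporter/fate reporter (Gr/fr) mice of the C57BL/6 strain, which were sorted into 4 groups with 3 libraries in each. Each library held between 40974124 and 57822269 reads on genes.

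All mice, and so all 4 groups, carried the same transgenes. The Csf2 allele kept its GM-CSF expression and also drove iCre recombinase and a blue fluorescent protein, and a Rosa26 allele turned on YFP permanently in any cell in which iCre had been active. YFP+ cells therefore had a history of Csf2 promoter activity, whereas YFP- cells had none that the reporter had recorded. Naïve cells were gated as CD62L+CD44- and effector memory cells (TEM) as CD62L-CD44hi, and each was split into YFP- and YFP+ cells. No disease had been induced in the mice. The sort drew on 3 mice, and mice sorted for culture in the same work were 2 to 3 months old. Whether a replicate number stands for 1 mouse or for a pool is not given in the sources used here, so p-values measure the spread between these libraries.

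E proteins bind DNA as dimers at E-boxes, short sites with the letters CANNTG, and switch on genes of lymphocyte development. Id proteins carry the dimerization domain but no DNA-binding domain, so an Id protein that pairs with an E protein keeps it off DNA, and the balance between both families is read in T cells as a control of naïve, effector and memory states. In T cells Id2 is known for its part in effector cells, innate-like T cells and innate lymphocytes, Id3 for its part in naïve, memory and follicular cells, and E2A and HEB for thymocyte development. E2-2 is best known as the factor that sets the identity of plasmacytoid dendritic cells.

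In the GRCm38.p6 assembly Id1 (Entrez 15901) lies at chr2:152736251-152737410, Id2 (15902) at chr12:25093799-25096092, Id3 (15903) at chr4:136143822-136145392, Tcf3 (21423) at chr10:80409541-80433976 and Tcf12 (21406) at chr9:71844252-72111893. Tcf12 overlaps the pseudogenes Gm18821 and Rpl15-ps2. The libraries were stranded, but whether reads were counted by strand is not given in the sources used here, so reads from an overlapping gene may have been counted with a member.

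RefSeq promoter sequences of the same assembly, from 250 bases before to 50 bases after a transcript start, were read for 4 of the 6 genes (Id2, Id3, Tcf3 and Tcf12, the last with 3 starts). They are shown because E-boxes are the sites on which both families act. The motif CANNTG, which reads the same on both strands as a class, was present in the Id2 and Tcf3 promoters and in all 3 Tcf12 promoters, and these letters were not in the Id3 window. The following windows of 30 bases are on the minus strand, at chr12:25096271-25096300, chr10:80433672-80433701 and chr9:72112040-72112069 in that order, with the E-box in capitals.
Id2: aatttgccacccCAGCTGggctctcgcccg
Tcf3: agtgggcgtggtCACTTGggggcgtggctt
Tcf12: agatgctgccCAGCTGcgtccccgtcgcgg
The E-boxes begin 196, 54 and 240 bases before the respective transcript starts. CANNTG was found in 72.3% of all 32851 promoters of 300 bases, so its presence does not set these genes apart. The narrower form CAGCTG, which is contained in CANNTG and reads the same on both strands, was found in 16.3% of promoters, those of Id2 and the first Tcf12 start among them. The form CAGGTG, or CACCTG on the other strand, was found in 20.2% of promoters and in none of the 6 windows.

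Values are normalized counts, that is, reads per gene divided by a size factor for each library. Differences were tested with limma on log2 (normalized count + 1) over the 15587 genes that reached 5 normalized counts in 3 or more libraries, and a gene passed where the p-value, adjusted over all of them by Benjamini-Hochberg, was 0.05 or lower. All 6 genes were tested. The labels were checked on 2 genes. Cd44, the memory marker, ranged from 2334 to 3372 normalized counts in naïve and from 21778 to 29383 in TEM libraries, and Csf2 reached 55.9 to 152 in YFP+ TEM and no more than 3.94 in any other library.

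Among the inhibitors, Id2 was the gene that moved most. It stood at 1899, 1603 and 1433 normalized counts in YFP- naïve libraries 1, 2 and 3 and at 2116, 2173 and 2009 in YFP+ naïve cells. In TEM it stood at 12916, 12230 and 11765 in YFP- libraries and at 27568, 18185 and 27353 in YFP+ libraries. The 4 groups did not overlap and lay in the order YFP- naïve, YFP+ naïve, YFP- TEM and YFP+ TEM, with YFP+ TEM replicate 2 closest to the YFP- TEM libraries.

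**Figure D1:**
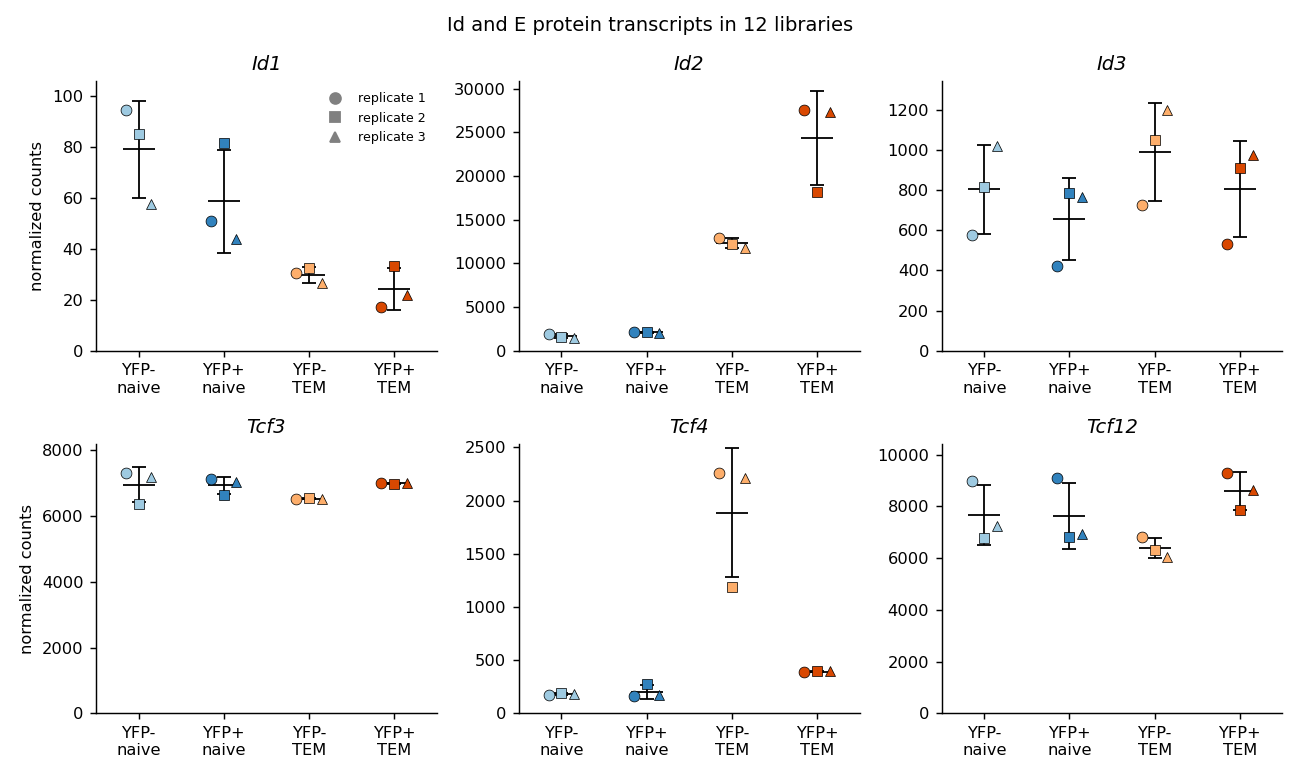
Normalized counts (vertical axes, linear and from 0) of the 6 genes in 12 libraries, by group on the horizontal axes, with the mean (long bar) and SD (whiskers, n = 3) and a symbol for each replicate number. Id2 rises from 1433 in the lowest naïve to 27568 in the highest TEM library, Tcf4 is high in YFP- TEM alone (1187 to 2262), and Tcf3 stays between 6359 and 7325.

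Between YFP+ and YFP- TEM cells Id2 rose by 0.96 on the log2 scale (SE 0.15, adjusted p = 0.00153), a 1.95-fold difference that had the same sign in 3 of 3 pairs of equally numbered libraries (0.57 to 1.22). It was the 1 member to rise in this comparison, in which 2.3% of all tested genes rose. Without YFP+ TEM replicate 2 the difference was 1.16, the highest value when any 1 library was left out, and the lowest was 0.86.

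The rise of Id2 from naïve to TEM cells was larger than that between YFP classes. It came to 2.91 (SE 0.15, adjusted p = 1.63e-08) in YFP- cells, or 7.52-fold, and to 3.51 (SE 0.15, adjusted p = 6.70e-09) in YFP+ cells, or 11.4-fold. Both comparisons changed a large part of all tested genes, with 29.9% rising in YFP- and 24.7% in YFP+ cells. Groups failed to overlap for 59.0% and 48.7% of genes in these comparisons, and for Id1, Id2 and Tcf4 among the members in both.

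In naïve cells the YFP+ libraries were also above all YFP- libraries for Id2, but by little, at 0.36 (SE 0.15, unadjusted p = 0.0298, adjusted p = 1). No member passed in this comparison, and only 1 of 15587 genes did (0.00642%), against 518 at an unadjusted p under 0.05. Groups that did not overlap, with YFP+ above, were seen for 3.16% of genes, and Id2 was the 1 member among them. The difference of the YFP effects in TEM and naïve cells (the interaction, which uses all 12 libraries and so shares them with the comparisons above) was 0.60 for Id2 (SE 0.21) and did not pass, with an adjusted p of 0.192. It passed without YFP+ TEM replicate 2, at 0.80 with an adjusted p of 0.0138.

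Id3 behaved otherwise. Its normalized counts in replicates 1, 2 and 3 were 576, 817 and 1018 in YFP- naïve libraries, 422, 783 and 766 in YFP+ naïve, 723, 1048 and 1198 in YFP- TEM and 529, 910 and 973 in YFP+ TEM cells. Replicate 1 was the lowest library of each group, all groups overlapped, and 96.1% of the squared spread within groups of log2 values followed the replicate number. Id3 was higher in TEM than in naïve cells in 3 of 3 pairs of YFP- cells and in 3 of 3 pairs of YFP+ cells. It was lower in YFP+ than in YFP- cells of the same number in 6 of 6 pairs.

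None of these Id3 differences passed the test without replicate numbers. From naïve to TEM cells they were 0.31 in YFP- (SE 0.31, adjusted p = 0.435) and 0.30 in YFP+ cells (SE 0.31, adjusted p = 0.475). With the replicate number as a block the value in YFP- cells passed, at an adjusted p of 0.0150. The value in YFP+ cells, between groups whose equally numbered libraries correlated weakly, also passed with the block. Between YFP+ and YFP- cells the difference was -0.32 in TEM (SE 0.31, adjusted p = 0.735) and -0.31 in naïve cells (SE 0.31, adjusted p = 1), and with the block the adjusted p was 0.0503 in TEM and 0.570 in naïve cells. DESeq2 with the block put Id3 under the threshold in TEM (adjusted p = 0.0235).

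**Figure D2:**
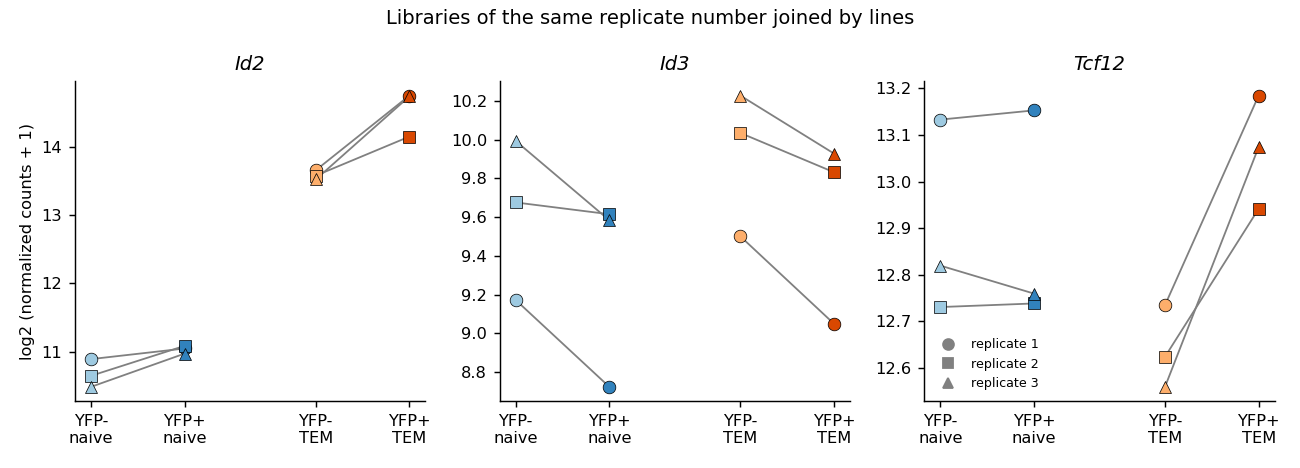
Log2 (normalized count + 1) of Id2, Id3 and Tcf12 (vertical axes, each with its own range and not from 0) in the 4 groups (horizontal axes), with YFP- and YFP+ libraries of one replicate number and cell type joined by a line. For Id3 all 6 lines fall and replicate 1 is lowest in each group, and for Tcf12 the 3 lines in TEM rise by 0.32 to 0.51.

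Id1 was the scarcest inhibitor. It was listed at 94.4, 84.9 and 57.6 normalized counts in YFP- naïve libraries, 50.7, 81.7 and 43.7 in YFP+ naïve, 30.3, 32.6 and 26.5 in YFP- TEM and 17.2, 33.1 and 21.9 in YFP+ TEM cells. Each TEM group lay below the naïve group of the same YFP class, while YFP+ and YFP- cells overlapped in both cell types. Id1 fell from naïve to TEM cells by 1.35 on the log2 scale in YFP- (SE 0.36, adjusted p = 0.00733) and by 1.25 in YFP+ cells (SE 0.36, adjusted p = 0.0139), in comparisons in which 19.9% and 16.7% of genes fell. The second call rested on single libraries, since the adjusted p was 0.0559 without YFP+ naïve replicate 2, 0.0576 without YFP+ TEM replicate 1 and 0.0530 when only the libraries compared were fitted.

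Thus the inhibitors did not move as a family: from naïve to TEM cells Id2 rose and Id1 fell. Id3 passed only with the replicate block, in both YFP classes. Without the block 3 of 6 members passed in each YFP class, Id1 downwards and Id2 and Tcf4 upwards. Of all tested genes 49.8% passed in either direction in YFP- and 41.4% in YFP+ cells, so that the share of members was close to the share of all genes.

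Tcf4 (Entrez 21413, chr18:69343429-69687967 in GRCm38.p6, overlapping the long noncoding RNA Gm31439) was the E protein gene with the clearest difference. In naïve cells it was low, at 173, 189 and 182 normalized counts in YFP- and 160, 274 and 172 in YFP+ libraries. In TEM it stood at 2262, 1187 and 2213 in YFP- and at 387, 397 and 397 in YFP+ libraries. The YFP- TEM libraries lay above all others, and YFP+ TEM lay between them and the naïve libraries without overlap.

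Tcf4 fell by 2.20 on the log2 scale in YFP+ against YFP- TEM cells (SE 0.25, adjusted p = 2.94e-04), which is 4.59-fold. It was the 1 member among the 4.67% of tested genes that fell, and both directions together held 2 of 6 members and 6.97% of genes. From naïve to TEM cells Tcf4 rose 9.95-fold in YFP- (3.32, SE 0.25, adjusted p = 3.94e-07) and 2.01-fold in YFP+ cells (1.00, SE 0.25, adjusted p = 0.00594). Quantile normalization, which moved the median of all genes in this YFP+ comparison from 0.0328 to -0.138, reduced the latter to 0.50 with an adjusted p of 0.0847. In naïve cells YFP+ and YFP- libraries overlapped (0.11, SE 0.25, adjusted p = 1), and the interaction of -2.31 (SE 0.35, adjusted p = 0.00445) was the 1 member value to pass that test, which 3.55% of genes passed, 2.73% downwards.

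**Figure D3:**
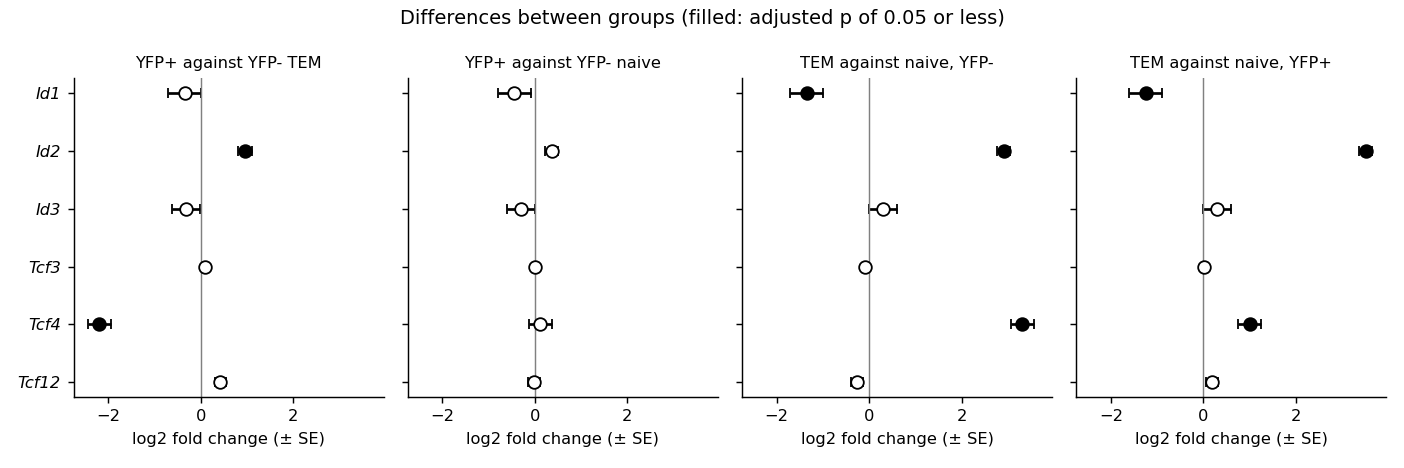
Log2 fold change with its SE (horizontal axes) of the 6 genes (vertical axis) in the 4 comparisons of 2 groups, with filled circles where the adjusted p was 0.05 or less. Id2 and Tcf4 are filled in all panels but that of naïve cells, in opposite directions between YFP+ and YFP- TEM (0.96 and -2.20).

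Transcripts of dendritic cells moved with Tcf4. In YFP+ against YFP- TEM cells 4.67% of all tested genes fell. Of 12 plasmacytoid dendritic cell markers, a list without Tcf4, 10 fell in this comparison, and Pacsin1 (-0.22, SE 0.14) and Tlr7 (-0.11, SE 0.29) did not pass. Their summed level was 15373 to 25588 normalized counts in YFP- TEM, 6831 to 8070 in YFP+ TEM and 6927 to 8003 in naïve libraries, and Pacsin1 alone held between 3617 and 6744 of it, so the sum stayed high where other markers were near 0. Siglech, a defining surface receptor of these cells, was at 3367, 1412 and 3263 in YFP- TEM replicates 1, 2 and 3, and at 118, 26.9 and 55.1 in YFP+ TEM replicates. Siglech, Cd300c, Cox6a2 and Klk1 were at or under 3 reads in every YFP- naïve library.

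The markers of conventional dendritic cells gave the same picture in the same libraries. Of 7 markers 6 fell, and their sum was 9329 to 19300 in YFP- TEM, 513 to 1158 in YFP+ TEM and 76.0 to 353 in naïve libraries. Zbtb46, a factor of conventional dendritic cells, was at 541, 528 and 1121 in YFP- and 151, 122 and 116 in YFP+ TEM replicates. YFP- TEM replicate 2 was the lowest YFP- TEM library for Tcf4, Siglech, Zbtb46 and both sums.

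Among naïve libraries YFP+ replicate 2 was the highest for Tcf4 (274), for Siglech (16.7), for Zbtb46 (24.6), for the summed conventional dendritic cell markers (353), for 10 summed macrophage and neutrophil markers (4980, against 217 to 958 in the other naïve libraries) and for 11 summed B cell markers (2736, against 735 to 1840 in the others). The sum over B cell markers was 2457 to 3654 in YFP- and 1529 to 2272 in YFP+ TEM libraries, with 2 markers that rose and 1 that fell. The median log2 fold change of these markers was 1.38, opposite in direction to their sum. Of 10 macrophage and neutrophil markers 2 fell and 8 did not pass, with sums of 6515 to 12053 in YFP- and 2372 to 4913 in YFP+ TEM libraries. Their median log2 fold change was 1.36, so here too the sum and the median went in opposite directions. By contrast none of 6 T cell markers passed, and their sum was 163492 to 194324 in YFP- and 180411 to 202681 in YFP+ TEM libraries.

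In bulk libraries fewer cells of a type and less RNA per cell cannot be told apart. The part of dendritic cell transcripts in the Tcf4 difference was not tested. Within YFP+ TEM, Tcf4 lay between 387 and 397 while Siglech spanned 26.9 to 118 and Zbtb46 116 to 151.

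**Figure D4:**
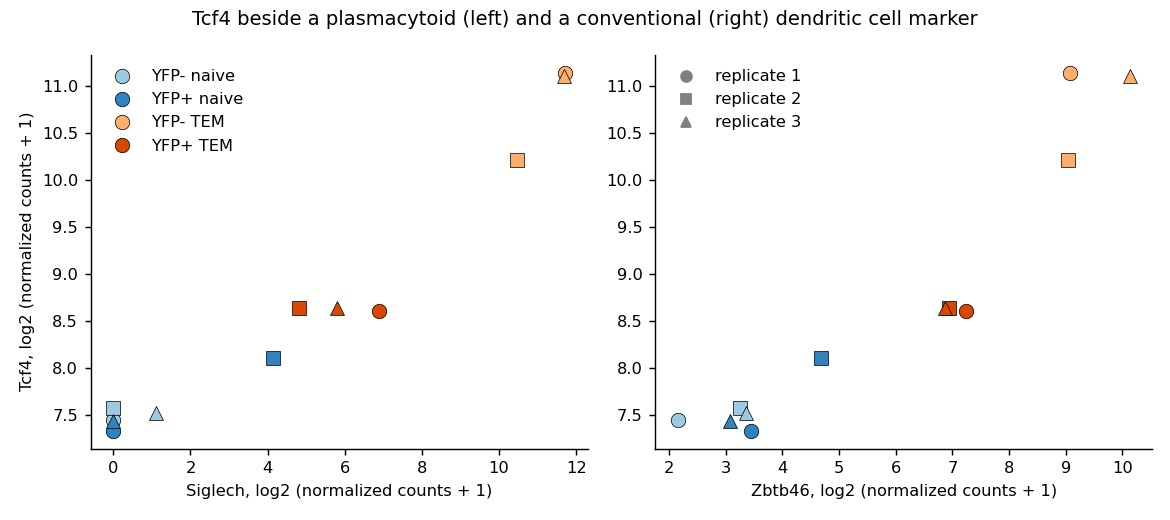
Tcf4 (vertical axis) beside Siglech (left) and Zbtb46 (right) in the 12 libraries, all as log2 (normalized count + 1), with colours for the groups and symbols for the replicate numbers. The 3 YFP- TEM libraries lie highest on all 3 scales, and YFP+ naïve replicate 2 lies above the other naïve libraries.

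Tcf12 ranked among the E protein genes with high counts and moved by little. Its normalized counts were 8982, 6795 and 7228 in YFP- naïve libraries, 9106, 6832 and 6933 in YFP+ naïve, 6815, 6311 and 6035 in YFP- TEM and 9308, 7865 and 8622 in YFP+ TEM cells. The lowest YFP+ TEM library lay above the highest YFP- TEM library, while the naïve libraries of both YFP classes overlapped. In TEM, groups failed to overlap for 25.0% of all tested genes, 10.6% with YFP+ above and 14.3% with YFP+ below, and among the members Id2, Tcf3 and Tcf12 did so with YFP+ above and Tcf4 with YFP+ below.

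The Tcf12 difference in TEM was 0.43 on the log2 scale (SE 0.13), or 1.34-fold, and missed the threshold at an adjusted p of 0.0736. All 3 pairs of equal number had the same sign (0.32 to 0.51), and 81.7% of the squared spread within groups followed the replicate number. With the replicate number as a block the adjusted p was 0.00244. It was also under the threshold by edgeR (0.0389) and DESeq2 (0.0309) on the recovered reads, with TMM factors (0.0339), with quantile normalization (0.00987) and with only the libraries compared (0.0212), and over all alternatives it ranged from 8.45e-07 to 0.255.

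From naïve to TEM cells Tcf12 was 0.26 lower in YFP- cells (log2 fold change -0.26, SE 0.13, adjusted p = 0.121) and 0.18 higher in YFP+ cells (SE 0.13, adjusted p = 0.285). The interaction was 0.44 (SE 0.18, adjusted p = 0.336). With the replicate block its adjusted p was 0.0263, and 0.00155 by DESeq2 with the block. Libraries of equal number correlated weakly between the YFP+ groups (-0.0199 to 0.204). The value between TEM and naïve YFP- cells had an adjusted p of 0.00821 with the block.

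Tcf3 was the steadiest member. It stood at 7325, 6359 and 7195 normalized counts in YFP- naïve libraries, 7131, 6632 and 7047 in YFP+ naïve, 6530, 6556 and 6519 in YFP- TEM and 6997, 6994 and 7016 in YFP+ TEM cells. The TEM libraries hardly varied within a group, so that the YFP+ values lay above the YFP- values in all 3, by 0.09 to 0.11 on the log2 scale. The difference of 0.10 (SE 0.07) did not pass (adjusted p = 0.585, and 0.293 to 0.762 over all alternatives), and an exact permutation test of 3 against 3 libraries cannot go below 0.10. The other differences of Tcf3 between 2 groups ranged from -0.09 to 0.01 with the same SE, and none passed. Its interaction was 0.10 (SE 0.10, adjusted p = 0.897).

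Levels of different genes were compared per kilobase of the longest coding transcript, which was 1160 bases for Id1, 1969 for Id2, 1278 for Id3, 2950 for Tcf3, 8577 for Tcf4 and 6299 for Tcf12. In YFP- naïve cells the order was Tcf3 (2359 ± 178 normalized counts per kb, SD, n = 3), Tcf12 (1217 ± 184), Id2 (836 ± 120), Id3 (629 ± 173), Id1 (68.1 ± 16.5) and Tcf4 (21.1 ± 0.94). The ranges of Id2 and Id3 overlapped there, and those of the other neighbours in this order did not. In TEM cells Id2 stood first, at 6249 ± 294 in YFP- and 12376 ± 2720 in YFP+ cells, ahead of Tcf3 at 2215 ± 6.38 and 2374 ± 3.98. Tcf12 followed at 1014 ± 62.8 in YFP- and 1365 ± 115 in YFP+ TEM, then Id3 at 774 ± 190 and 629 ± 188. Id2 stood first in TEM with either length and without division, but the order otherwise depended on the length used. Per kb of the union of all annotated exons, Id2 (675 ± 96.8) stood above Tcf12 (494 ± 74.6) in YFP- naïve cells, and Id3 (553 ± 135) above Tcf12 (411 ± 25.5) in YFP- TEM. Without division, Tcf12 (7668 ± 1158) stood above Tcf3 (6960 ± 524) in YFP- naïve cells, and below it in YFP- TEM (6387 ± 396 against 6535 ± 18.8).

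Per kb, with either length, Tcf4 and Id1 held the lowest places. Per kb of the longest coding transcript Tcf4 stood above Id1 in YFP- TEM, at 220 ± 70.7 against 25.7 ± 2.67 per kb, and in YFP+ TEM, at 45.9 ± 0.66 against 20.7 ± 7.07, whereas it was below Id1 in both naïve groups. With the exon union Tcf4 was below Id1 in YFP+ TEM as well, at 14.4 ± 0.21 against 20.7 ± 7.07, and above it in YFP- TEM. Without division by length Tcf4 was above Id1 in all 4 groups, at 181 ± 8.07 against 79.0 ± 19.1 normalized counts in YFP- naïve cells. In YFP- TEM it was then also above Id3, at 1887 ± 607 against 990 ± 243. In YFP- TEM Tcf4 made up 6.35% ± 1.94 of the summed E protein transcripts per kb, against 0.592% ± 0.0818 in YFP- naïve, 0.666% ± 0.248 in YFP+ naïve and 1.21% ± 0.0516 in YFP+ TEM cells. Its share in YFP- TEM was 12.6% without division by length and 3.28% with the exon union. Among 13432 genes with a length, Id2 ranked 3703rd per kb in YFP- naïve cells, 2962nd in YFP+ naïve, 363rd in YFP- TEM and 185th in YFP+ TEM cells, while Tcf3 kept to places between 1228 and 1287.

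The sum of the E protein transcripts was similar in the 4 groups, at 3598 ± 336 per kb in YFP- naïve cells, 3585 ± 267 in YFP+ naïve, 3449 ± 100 in YFP- TEM and 3785 ± 115 in YFP+ TEM cells (SD, n = 3). The sum of the Id transcripts was 1533 ± 39.2, 1631 ± 171, 7049 ± 109 and 13026 ± 2644 in the same order. The ratio of Id to E protein transcripts was thus 0.429 ± 0.0444 in YFP- naïve cells, 0.459 ± 0.0798 in YFP+ naïve, 2.04 ± 0.0483 in YFP- TEM and 3.43 ± 0.620 in YFP+ TEM cells. The naïve groups overlapped in this ratio, and each TEM group was apart from all others, with YFP+ TEM replicate 2 the lowest of its group at 2.72. In the E protein sum the TEM groups were also apart, at 3363 to 3559 per kb in YFP- and 3666 to 3895 in YFP+ TEM libraries. Without division by length these sums overlapped, at 14054 to 15608 and 15256 to 16693.

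**Figure D5:**
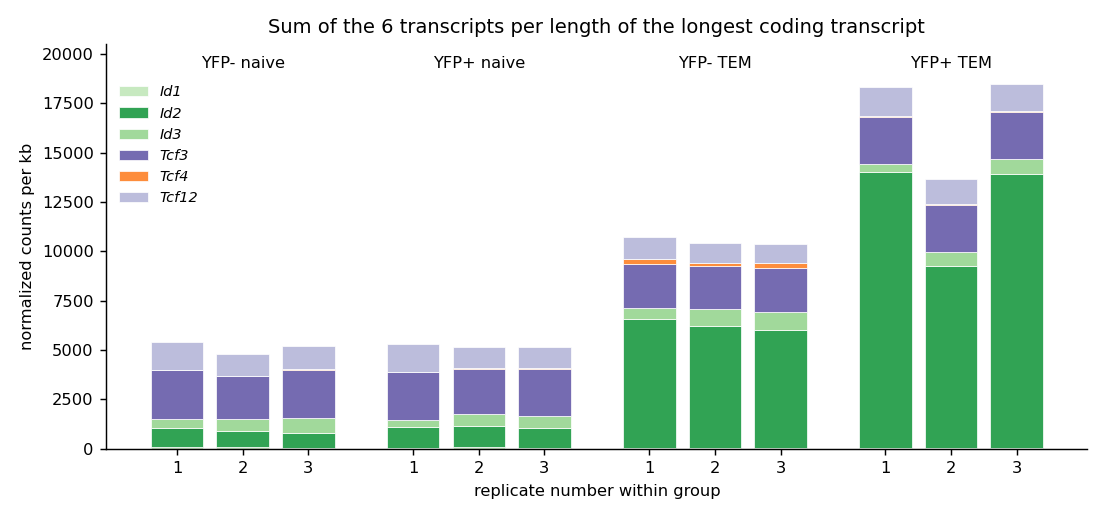
Stacked normalized counts per kb of the longest coding transcript (vertical axis, linear and from 0) of the 6 genes in each of the 12 libraries (horizontal axis, replicate number within group). The dark green share of Id2 grows from 16.3% of the 6 transcripts on average in YFP- naïve to 73.1% in YFP+ TEM. The purple parts, Tcf3 and Tcf12, keep a similar summed height per kb.

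Id2 made up 16.3% ± 1.97 of the 6 transcripts in YFP- naïve cells, 20.4% ± 0.874 in YFP+ naïve, 59.5% ± 1.79 in YFP- TEM and 73.1% ± 4.72 in YFP+ TEM cells. Within the inhibitors the share of Id3 was 40.9% ± 10.3, 31.1% ± 7.25, 11.02% ± 2.85 and 5.07% ± 2.14 in the same order, and the ranges of Id2 and Id3 per kb overlapped in YFP- naïve cells alone. These shares count transcripts, not protein, and depend on the length used, since undivided counts gave a ratio of Id to E protein of 0.172 in YFP- naïve and 1.57 in YFP+ TEM cells.

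Markers of innate-like lymphocytes moved with Id2. All 3 invariant NKT cell markers (Zbtb16, which encodes PLZF, and the receptor segments Trav11 and Trav11d) rose in YFP+ against YFP- TEM cells, with sums of 519, 287 and 451 in YFP- and 7395, 2860 and 6602 in YFP+ replicates 1, 2 and 3. All 4 tested NK cell markers rose as well, from sums of 20.4 to 32.8 to sums of 190 to 310. In this comparison 2.3% of all tested genes rose. YFP+ TEM replicate 2 was the lowest YFP+ TEM library for Id2, for both sums and for Csf2. From YFP- naïve to YFP- TEM cells, where Id2 rose 7.52-fold, the NKT sum went from between 120 and 229 to between 287 and 519. Of the 3 markers in it, Zbtb16 alone passed there, with a rise of 5.58 on the log2 scale (SE 0.66, limma adjusted p = 1.74e-05). The part of such cells in the Id2 difference was not tested.

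The other genes around the pathway were read from 5 lists. Of all tested genes, 6.97% passed in either direction between YFP+ and YFP- TEM cells. From naïve to TEM cells 49.8% passed in YFP- and 41.4% in YFP+ cells. In YFP+ against YFP- TEM cells the list medians lay between -0.08 and 0.20 on the log2 scale, against -0.11 for the 6 members and -0.01 for all tested genes. Of 16 tested genes for other helix-loop-helix factors and their co-regulators, 2 fell and none rose in YFP+ against YFP- TEM cells. Cbfa2t3, which encodes the E protein corepressor ETO2, stood at 4234, 3478 and 7644 in YFP- and at 460, 537 and 527 in YFP+ TEM libraries (-3.25, SE 0.36, adjusted p = 2.60e-04), and Lmo2, a bridging partner of helix-loop-helix complexes, at 595, 414 and 841 against 89.0, 42.5 and 111 (-2.96, SE 0.45, adjusted p = 0.00138). Both were also highest in YFP+ replicate 2 among the naïve libraries, at 157 and 105, as Tcf4 and the dendritic cell markers were. From naïve to TEM cells 9 genes of this list rose and 1 fell in YFP- cells, and 4 rose and 1 fell in YFP+ cells. Bhlhe40, a transcriptional repressor found in activated T cells, rose by 6.25 and 6.17, and Ldb1, a partner of Lmo2, fell by 0.54 and 0.33. Ascl2, a factor of follicular helper cells, rose from 0 reads in all 6 naïve libraries to 46.9 to 393 normalized counts in YFP- and 55.1 to 392 in YFP+ TEM libraries.

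Of 15 tested genes known to be regulated by E proteins in lymphocytes, 3 rose and 1 fell in YFP+ against YFP- TEM cells, where 6.97% of all tested genes passed. Il7r, the IL-7 receptor chain, rose from 42834, 36099 and 36195 to 77244, 56981 and 72884 normalized counts (0.84, SE 0.13, adjusted p = 0.00171). Zbtb16, which also stands in the NKT list, rose by 3.25 (SE 0.66, adjusted p = 0.00854), Socs1, an inhibitor of cytokine signalling, by 0.51 (SE 0.13, adjusted p = 0.0306), and Notch3, a low gene, fell by 1.53 (SE 0.38, adjusted p = 0.0280). The call of Socs1 was lost in 5 alternatives, with adjusted p-values up to 0.131, and that of Zbtb16 in 1, at 0.142. From naïve to TEM cells 10 rose and 3 fell in YFP- and 9 rose and 2 fell in YFP+ cells, and Foxo1, a factor of naïve T cell homeostasis, was among those that fell (-1.22 and -1.12). Of all tested genes 49.8% and 41.4% passed in either direction there. The list does not separate genes that E proteins raise from genes that they lower, so these counts give no direction of E protein activity.

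The list of inducers of Id genes held the Egr factors and the receptors and Smads of BMP and TGF-beta signalling. It also held the inhibitory Smad7, so its counts mix opposite roles. Of its 12 tested genes, 1 rose and none fell between YFP+ and YFP- TEM cells. This was Bmpr1a, a BMP receptor (0.87, SE 0.22, adjusted p = 0.0286), whose call was lost in 5 alternatives with adjusted p-values up to 0.132. From naïve to TEM cells 4 rose and 5 fell in YFP- and 4 rose and 4 fell in YFP+ cells. Of all tested genes 49.8% and 41.4% passed in either direction in these comparisons. The receptors Acvr1 (4.21 and 3.23) and Bmpr2 (2.00 and 1.70) and the factor Egr2 (2.27 and 2.26) rose, and Smad7, an inhibitory Smad (-1.82 and -1.71), and Smad5 (-0.88 and -0.60) fell.

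Of 12 effector genes associated with Id2, 11 rose from naïve to TEM cells in YFP- and 10 in YFP+ cells and none fell, with list medians of 5.44 and 3.89 against 0.05 and 0.03 over all tested genes. Of all tested genes 29.9% and 24.7% rose in these comparisons. Cxcr3, a homing receptor of T helper 1 cells, rose by 8.10 and 8.45, and Klrg1, a receptor of terminal effector cells, by 9.30 and 7.82. Between YFP+ and YFP- TEM cells 2 rose and 1 fell. Il2rb, the shared IL-2 and IL-15 receptor chain, stood at 37292, 34249 and 28515 in YFP- and at 84391, 53436 and 59662 in YFP+ libraries (0.96, SE 0.16, adjusted p = 0.00268), Tbx21, which encodes T-bet, was 0.68 higher (SE 0.19, adjusted p = 0.0477, lost in 10 alternatives), and Havcr2, which encodes TIM-3 and is also found on dendritic cells, fell by 3.17 (SE 0.62, adjusted p = 0.00722).

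Of 12 memory and follicular genes associated with Id3, 6 rose and 6 fell from naïve to TEM cells in both YFP classes. Of all tested genes 49.8% passed in either direction in YFP- and 41.4% in YFP+ cells. Il21 (9.16 and 8.07) and Pdcd1, which encodes PD-1 (5.63 and 5.47), rose, while Lef1 (-3.30 and -2.94) fell. Between YFP+ and YFP- TEM cells Bcl2, which protects cells from apoptosis, rose from 4797, 5139 and 4473 to 9779, 10283 and 12290 normalized counts (1.16, SE 0.10, adjusted p = 9.57e-05). In naïve cells no gene of the 5 lists passed between YFP classes.

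The genes whose pattern over the 12 libraries was most like that of each member were found by the root mean square difference of centred log2 values among 11692 genes whose mean was 50 normalized counts or more. For Tcf4 these were Ccdc88a (0.21), Csf2ra, the GM-CSF receptor alpha chain (0.24), and Tctex1d2 (0.25). Csf2ra stood at 1630, 1044 and 1949 in YFP- and 315, 450 and 314 in YFP+ TEM libraries. For Id2 they were St6galnac3 (0.26), Chsy1 (0.26) and Slc25a53 (0.27), which were all further from Id2 than its own spread within groups of 0.17. Id3 was closest to Rprd1a (0.13), Srsf1 (0.17) and Zfp458 (0.17), Id1 to Nhsl1 (0.23), E130215H24Rik (0.27) and Cep97 (0.30), Tcf3 to Sar1a, Prpf6 and Atf2 (0.04 each) and Tcf12 to Wdtc1 (0.07), Cds2 (0.09) and Chmp1b (0.09).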

How the data were processed

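RNA from 12 sorted libraries was sequenced from stranded total RNA libraries, and per the labels reads were mapped to mm10 with DRAGEN. The deposited signal was a table of counts per Entrez gene divided by DESeq2 size factors. Counting used Rsubread, while its annotation and strand setting and the tool versions are not given in the sources used here. Whole reads were recovered for 100% of values (tolerance 0.01 reads), with less certainty for YFP+ TEM replicate 1, whose step of 1 read was too near 1 (size factor 0.989) for a separate check of whole reads, and tests on reads include that library. So 40974124 to 57822269 reads per library lay behind the values.

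Symbols were found in a RefSeq table for 16749 genes and not for 774, and lengths came from GENCODE M21. Genes with at least 5 normalized counts in 3 libraries (15587) were tested with limma 3.58.1 in R 4.3.3 on log2 (normalized count + 1), with 4 group means, 8 residual degrees of freedom, a mean-variance trend and Benjamini-Hochberg adjustment. Fold changes are on this scale and understate changes of low genes. Alternatives included edgeR 4.0.16 and DESeq2 1.42.0 on recovered reads, other normalizations, prior counts and filters, and each library left out. The fit was tested on simulated data.

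The labels number replicates 1 to 3. Deviations of equally numbered libraries correlated at 0.180 to 0.356 between TEM groups, 0.306 to 0.491 between naïve groups and 0.137 to 0.232 between YFP- groups, and the numbers were taken to pair these libraries. The reported calls come from the fit without pairing, and the block was an alternative. Between YFP+ groups they correlated at -0.0199 to 0.204, which by itself did not show pairing. If the pairings above hold, however, these libraries are paired through the YFP- groups. Equal numbers correlated at 0.104 to 0.212 between YFP+ naïve and YFP- TEM, and at 0.0646 to 0.176 between YFP- naïve and YFP+ TEM.

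Named genes were the members, the 3 genes nearest to each, up to 3 rising and 3 falling genes per list whose mean was 50 normalized counts or more, and markers beside their sums. Notch3, Pacsin1, Tlr7, Siglech and Zbtb46 were singled out after their values were seen. The members and lists were chosen with earlier results of these data known. Some genes of these lists are not reported here.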

Additional observations from a re-analysis of the deposited data

Results flagged for a closer look

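Tcf4 differed between cell types in its YFP effect. Its log2 fold change was -2.20 between YFP+ and YFP- TEM and 0.11 between YFP+ and YFP- naïve cells, and the test of the difference gave -2.31 (SE 0.35, limma adjusted p = 0.00445). It ranged from -2.62 to -2.07 when 1 library was left out, with adjusted p-values of 0.00198 to 0.0180. The plasmacytoid and conventional dendritic cell markers showed a difference in the same direction, with 9 of 12 and 6 of 7 passing in the same test. Of all tested genes 3.55% passed it. The part of these markers in the Tcf4 value was not tested.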

How the results depend on the processing

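Of 714 alternative values over the 30 member results, 667 kept their direction and side of the threshold, 23 newly passed, 4 lost their call and 20 changed sign. The calls of Id2 and Tcf4 between YFP+ and YFP- TEM cells held when any 1 library was left out, with adjusted p-values of 1.33e-04 to 0.0106 and 1.07e-04 to 0.00262. In TEM, 2 members passed, against 4 (Id2, Id3, Tcf4 and Tcf12) by DESeq2 with the replicate block and 1 where a log2 fold change of 1 in either direction was also asked for. Over all genes the calls were 1087, 2427 and 749 in the same order. In naïve cells 0 members passed in limma, edgeR and DESeq2, and Id2 was the 1 member at an unadjusted p under 0.05 in limma.

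With the replicate block, which also enters the weakly correlated YFP+ groups here, 2 members passed the interaction (Tcf12 with an adjusted p of 0.0263) and 5 passed between TEM and naïve cells in each YFP class (in YFP+ cells Id3 at 0.0209 and Tcf12 at 0.0455). DESeq2 with the block gave 3, 5 and 5. The interaction held 1 to 2 members when 1 library was left out, 2 without YFP+ TEM replicate 2. Sign changes were confined to values that did not pass. Leaving out 1 library moved the naïve YFP difference from -0.0665 to 0.0355 for Tcf3, from -0.13 (without YFP+ replicate 2) to 0.26 for Tcf4 and from -0.15 to 0.11 for Tcf12. It moved the interaction from -0.15 to 0.36 for Id1 and from -0.30 to 0.27 for Id3. The Id3 interaction was 0.0292 by quantile normalization, 0.0227 by TMM and 0.0256 by edgeR. The TEM against naïve difference of Tcf3 in YFP+ cells was -0.0176 without YFP+ naïve replicate 2 and at most 0.0347 without another library. The cause was not tested.

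Division by length set the shares by construction. Without it Id2 made up 9.49%, 11.98%, 43.7% and 58.7% of the 6 transcripts in YFP- naïve, YFP+ naïve, YFP- TEM and YFP+ TEM cells, and with the union of all exons, chosen after seeing the data, 19.8%, 24.6% and 65.3% in the first 3 groups. The ratio of Id to E protein was 0.172, 0.193, 0.901 and 1.57 without division and 0.539, 0.581, 2.68 and 4.54 with the union. Over the 4 group means, 0 of the 3 nearest genes were shared for Id1, Id3 and Tcf3 and 1 for Id2 and Tcf12. Over all genes, 1087 calls in TEM became 1869 with the block, 2427 by DESeq2 with it and 638 without YFP- TEM replicate 3. The 554 interaction calls became 890 with the block, 842 by DESeq2, 1247 with both, and 346 and 279 without YFP- TEM replicates 1 and 3. With that fold change asked for, 7769 and 6453 TEM against naïve calls became 4120 and 3319. Quantile normalization moved the share of calls that were higher from 33.0% to 46.0% in TEM, from 60.0% to 37.7% between TEM and naïve in YFP- and from 59.6% to 39.8% in YFP+ cells. The fit of only the libraries compared was not made for the interaction, which needs all 4 groups. Id1 is limited by depth, at no more than 82 reads in a YFP- naïve library.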

Other observations

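Regulatory and CD8 T cell markers, which the sort should leave out or hold in part, also differed between the groups in which Id2 and Tcf4 were compared. Foxp3, the factor of regulatory T cells, fell in YFP+ against YFP- TEM cells by 0.87 on the log2 scale (SE 0.24, limma adjusted p = 0.0450), as 1 of 5 regulatory T cell markers, and the sum of these markers was 63022 to 79885 normalized counts in YFP- and 50154 to 58611 in YFP+ TEM libraries. Both CD8 T cell markers fell, with sums of 685 to 1490 in YFP- and 187 to 373 in YFP+ TEM libraries. The part of either in the member values was not tested.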
